A study of Arabidopsis thaliana with 4 samples.

Results

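The 35 nuclear genes described here encode enzymes of the Calvin cycle and of photorespiration, with some of their helper proteins, in Arabidopsis thaliana. They were taken by locus from a list of 35 loci and are 35 of the 33602 gene models counted in each library. RNA had been sequenced from aerial organs of soil-grown plants at Boyes stage 1.09, a growth stage defined by the number of rosette leaves, with 2 libraries for each genotype. The genotypes were the knock-out line SM_3_29659, which carries otp90, and Col-0, the wild type. Both genotypes grew untreated at 18 to 21 °C, in light of at most 90 µE per square metre and second. The series compared the knock-out with the wild type, and the knock-out is represented by this 1 line. OTP90 itself was not analysed here, and the genotype labels therefore have no check from its level. Nothing in the labels ties the libraries to separate plants or cultures, and a p-value here measures a spread between libraries that may be technical.

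In the Calvin cycle, Rubisco joins CO2 to ribulose bisphosphate, the product is reduced to triose phosphate with ATP and NADPH, and the remaining enzymes rebuild the acceptor. Rubisco also reacts with oxygen, and the phosphoglycolate made in that reaction is salvaged by photorespiration through plastids, peroxisomes and mitochondria, with loss of CO2 and ammonia that is fixed again in the plastid. The genes of both pathways are known for high expression in green leaf cells and for control by light, sugar status and the circadian clock.

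Each library held 1489112 to 2685718 counted reads, of which 51889 to 102885 fell on the 35 genes. Col-0 replicate 1 was the deepest library and stood apart from the other 3 libraries in most results below. Its share of nuclear counts on the 35 genes was 3.15% (exact 95% binomial interval 3.12 to 3.18%), against 8.25% (8.20 to 8.30%) in Col-0 replicate 2. In otp90 the share was 7.54% (7.48 to 7.59%) in replicate 1 and 5.88% (5.84 to 5.92%) in replicate 2, so both otp90 libraries lay between the Col-0 libraries. These intervals, and those below, cover counting error only. The green tissue markers LHCB3, LHCA1, PSAF and PSBO1 were detected in every library, at 4380 to 11595 CPM in sum. CPM are counts scaled to the size of the library, without rRNA, and by TMM, a factor that sets most genes equal between libraries. The 5 flower markers summed to 3.25 to 8.53 CPM, the 4 seed markers to 2.44 to 8.82 CPM and the 6 root markers to 23.3 to 92.7 CPM. PYK10 made up most of the root sum, at 17.2 to 89.4 CPM, and no other root marker exceeded 4.87 CPM. Markers of green aerial tissue were thus present in every library. In bulk tissue, fewer cells of a type and less RNA per cell cannot be told apart.

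Of the 35 genes, 34 passed the filter on low counts, and all 34 were higher in Col-0 replicate 2 than in Col-0 replicate 1. The ratio of these 2 libraries was 1.36 to 8.85, with a median of 3.44, while the median over the 11938 genes tested was 1.01. The 24 members with a ratio above 2-fold compare with 15.8% of all genes tested, and the 34 members with a ratio above 1 with 50.4%. In otp90, 27 of the 34 members were lower in replicate 2 than in replicate 1 (49.5% of all genes tested), and the ratio of replicate 2 to replicate 1 was 0.262 to 1.40 with a median of 0.804. Those same 27 members thus rose from replicate 1 to replicate 2 in Col-0 and fell in otp90, as did 22.6% of all genes tested. That share leaves out genes with the reverse order, which no member showed. Col-0 replicate 1 was the lowest library for 32 members (26.3% of all genes), and the exceptions were the Rubisco genes RBCS1A and RBCS1B, lowest in otp90 replicate 2. Col-0 replicate 2 was the highest library for 18 members (25.1% of all genes), otp90 replicate 1 for 13 and otp90 replicate 2 for 3. For 16 members Col-0 replicate 1 was lowest and Col-0 replicate 2 highest (9.99% of all genes), so both otp90 libraries lay between the Col-0 libraries. With the Col-0 libraries in either order, 19.9% of all genes had both otp90 libraries between them. Each such ratio compares 2 libraries and carries no replicate check.

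**Figure D1:**
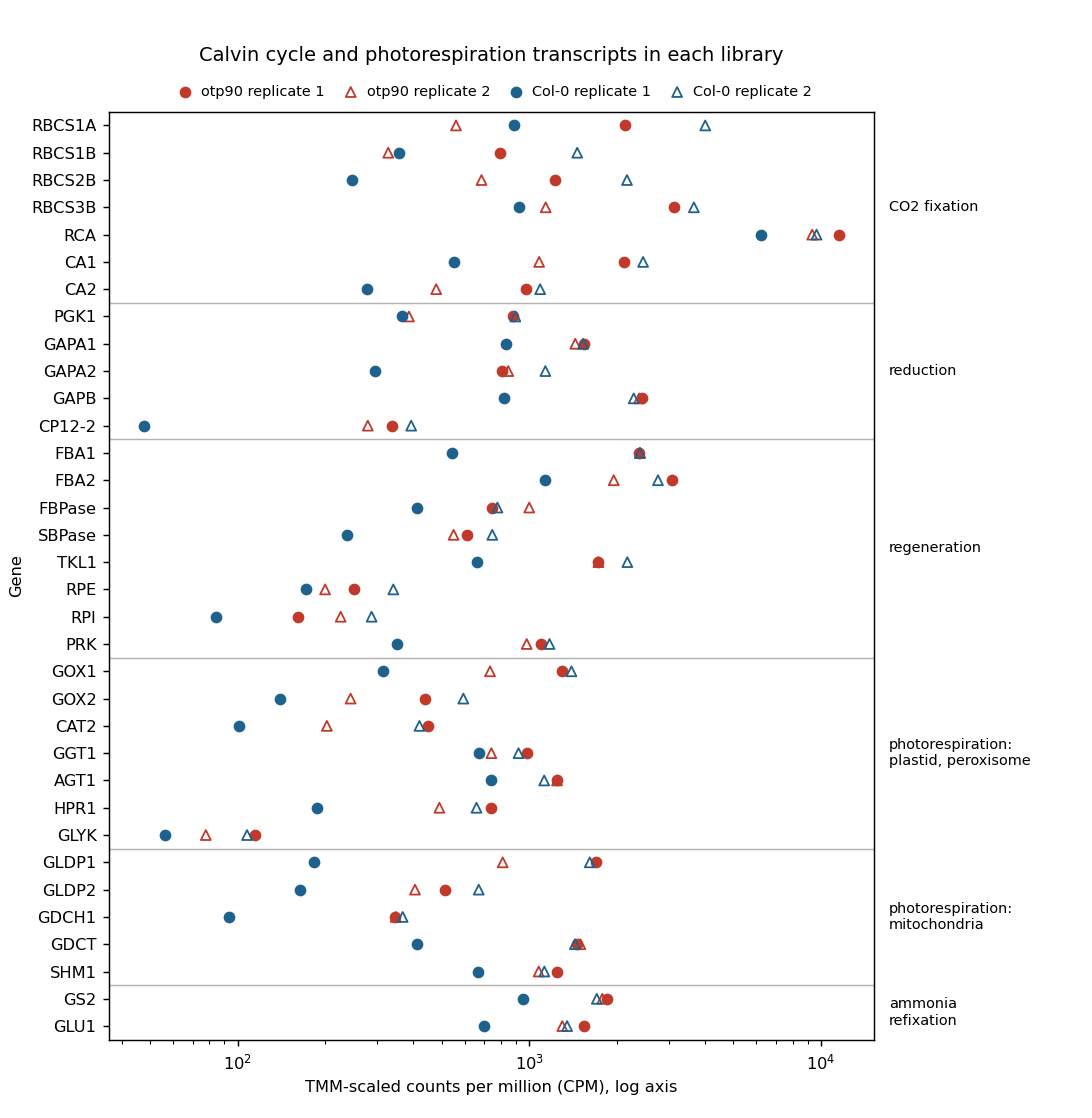
Level of the 34 members that passed the filter on low counts, in CPM on a log axis, with 1 row per gene ordered by role. Red marks are the otp90 libraries and blue marks the Col-0 libraries, filled circles for replicate 1 and open triangles for replicate 2. The filled blue circles are the lowest mark in 32 of the 34 rows.

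The small subunit of Rubisco is encoded by 4 genes, and their reads are hard to assign because the genes share long stretches. Reads whose best alignments tied had been removed before counting. The following 110 bases of each coding sequence were chosen as the gap-free stretch with the most positions identical between RBCS1B, RBCS2B and RBCS3B. They are read on the coding strand of the RefSeq annotation of TAIR10.1, from coding bases 376 to 485 of RBCS3B and 361 to 470 of the others, and capitals mark bases that differ from RBCS3B:
RBCS3B: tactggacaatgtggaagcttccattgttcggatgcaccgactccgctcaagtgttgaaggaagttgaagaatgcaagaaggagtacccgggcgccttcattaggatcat
RBCS1B: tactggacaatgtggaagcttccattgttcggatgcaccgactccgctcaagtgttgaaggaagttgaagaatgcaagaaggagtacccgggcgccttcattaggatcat
RBCS2B: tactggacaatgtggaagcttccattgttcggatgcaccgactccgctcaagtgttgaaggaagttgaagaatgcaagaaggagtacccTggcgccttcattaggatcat
RBCS1A: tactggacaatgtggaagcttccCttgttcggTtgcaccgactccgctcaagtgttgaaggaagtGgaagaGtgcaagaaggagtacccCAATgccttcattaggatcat
Over this stretch RBCS1B and RBCS3B had no difference, RBCS2B had 1 and RBCS1A had 8. Against RBCS3B over the whole coding sequences, RBCS1B had 18 mismatches and 15 gap columns, RBCS2B 17 and 15, and RBCS1A 51 and 18. The longest identical run between the coding sequences of RBCS1B and RBCS3B was 230 bases, and a read inside it cannot be assigned to either gene. Of the 100-base windows of the transcript, 18.1% had an exact copy elsewhere for RBCS1B and 12.1% for RBCS3B, against 0.0% for RBCS1A and RBCS2B. With 50-base windows the shares were 32.6% for RBCS1B, 21.4% for RBCS2B, 18.4% for RBCS3B and 1.5% for RBCS1A. The 4 genes could therefore lose reads to ties in different degrees, and their order by level is uncertain.

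RBCS3B (AT5G38410) stood at 3145 CPM in otp90 replicate 1, 1137 in otp90 replicate 2, 920 in Col-0 replicate 1 and 3664 in Col-0 replicate 2. RBCS1A (AT1G67090), the member on chromosome 1, stood at 2135 and 560 CPM in otp90 and at 888 and 4009 CPM in Col-0, in the order replicate 1, replicate 2, which all following pairs keep. For both genes the lower library of each genotype lay far below the higher library of the other, so the genotypes overlapped. RBCS2B (AT5G38420) stood at 1222 and 685 CPM in otp90 and at 247 and 2161 CPM in Col-0. Its Col-0 ratio of 8.75 (exact 95% counting interval 8.03 to 9.54) was above those of the other 3 RBCS genes, 3.98 to 4.51. RBCS1B (AT5G38430) stood at 795 and 328 CPM in otp90 and at 358 and 1459 CPM in Col-0. RBCS1A had the lowest otp90 ratio of all members, 0.262 (0.244 to 0.282), and in the replicate 2 libraries its otp90 level was 0.140 of its Col-0 level. In the replicate 1 libraries the same comparison gave 2.40, so the direction between genotypes was opposite in the 2 replicate numbers.

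The large subunit of Rubisco is encoded by rbcL in the plastid genome, and rbcL is not one of the 35 genes. It stood at 138129 and 121323 CPM in otp90 and at 133501 and 76816 CPM in Col-0, lowest in the library in which the RBCS genes were highest. Per kilobase of gene model, rbcL exceeded the summed RBCS genes 12.6-fold and 29.2-fold in otp90 and 36.8-fold and 4.48-fold in Col-0. The removal of tied reads touches this ratio of levels per length through the RBCS counts. Copies of rbcL elsewhere were not searched for, so its counts may lack tied reads too. The extent of either was not tested.

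Rubisco activase, RCA (AT2G39730), which frees the Rubisco active site of bound sugar phosphates, was the member with the highest level per length, at 5008 CPM per kilobase on average over the 4 libraries, rank 11 of 33319 nuclear gene models. Its CPM were 11510 and 9327 in otp90 and 6231 and 9650 in Col-0. The Col-0 ratio of 1.55 (1.52 to 1.58) was among the lower ones, although RCA had the most counts. CA1 (AT3G01500), a carbonic anhydrase of the plastid, stood at 2114 and 1080 CPM in otp90 and at 550 and 2454 CPM in Col-0. CA2 (AT5G14740), a second carbonic anhydrase, stood at 971 and 479 CPM in otp90 and at 277 and 1089 CPM in Col-0. Both carbonic anhydrase genes had the highest value in Col-0 replicate 2 and the lowest in Col-0 replicate 1. All 7 genes of CO2 fixation were higher in Col-0 replicate 2 and lower in otp90 replicate 2 than in replicate 1 of the same genotype, and their median ratios of 4.08 in Col-0 and 0.494 in otp90 were the highest and the lowest of the 6 roles.

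The reduction enzymes phosphorylate phosphoglycerate and reduce it to triose phosphate. PGK1 (AT3G12780), the plastid phosphoglycerate kinase, stood at 880 and 387 CPM in otp90 and at 366 and 895 CPM in Col-0, so each genotype had 1 high and 1 low library. The glyceraldehyde phosphate dehydrogenase of the plastid is built from A subunits, encoded by GAPA1 and GAPA2, and B subunits, encoded by GAPB. GAPA1 (AT3G26650) stood at 1537 and 1437 CPM in otp90 and at 833 and 1529 CPM in Col-0. GAPA2 (AT1G12900) stood at 808 and 846 CPM in otp90 and at 295 and 1135 CPM in Col-0. GAPB (AT1G42970) stood at 2426 and 2381 CPM in otp90 and at 817 and 2279 CPM in Col-0. For these 3 genes the otp90 ratio was 0.935 to 1.05 and the Col-0 ratio 1.83 to 3.84. For GAPB both otp90 values were above both Col-0 values. CP12-2 (AT3G62410), a small protein that binds the dehydrogenase and phosphoribulokinase in the dark, stood at 337 and 279 CPM in otp90 and at 47.7 and 393 CPM in Col-0. Its Col-0 ratio was 8.24 (6.78 to 10.1), one of 3 members above 8 together with RBCS2B and GLDP1.

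In the regeneration phase the plastid aldolases FBA1 and FBA2 join trioses. FBA1 (AT2G21330) stood at 2374 and 2396 CPM in otp90 and at 541 and 2393 CPM in Col-0, so 3 libraries were nearly level and Col-0 replicate 1 lay 4.42-fold (4.16 to 4.70) below Col-0 replicate 2. FBA2 (AT4G38970) stood at 3089 and 1947 CPM in otp90 and at 1133 and 2760 CPM in Col-0. The fructose bisphosphatase gene AT3G54050, annotated as HCEF1, stood at 745 and 999 CPM in otp90 and at 411 and 777 CPM in Col-0. It was 1 of 3 members highest in otp90 replicate 2, with FBA1 and GDCT. SBPase (AT3G55800), the sedoheptulose bisphosphatase, stood at 610 and 550 CPM in otp90 and at 238 and 746 CPM in Col-0. TKL1 (AT3G60750), a transketolase, stood at 1717 and 1725 CPM in otp90 and at 660 and 2167 CPM in Col-0. For both genes the otp90 libraries lay between the Col-0 libraries. RPE (AT5G61410), the ribulose phosphate epimerase, stood at 250 and 199 CPM in otp90 and at 171 and 342 CPM in Col-0. The ribose phosphate isomerase gene AT3G04790, annotated as EMB3119 and called RPI here, stood at 162 and 225 CPM in otp90 and at 84.2 and 288 CPM in Col-0. RPI was higher in replicate 2 of both genotypes, with a ratio of 1.40 in otp90 and 3.42 in Col-0. PRK (AT1G32060), phosphoribulokinase, which makes the CO2 acceptor, stood at 1099 and 979 CPM in otp90 and at 353 and 1173 CPM in Col-0. Of the 8 regeneration genes, 4 rose from replicate 1 to replicate 2 in Col-0 and fell in otp90 (22.6% of all genes tested). That is fewer in proportion than for CO2 fixation, and this difference between roles was not tested.

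**Figure D2:**
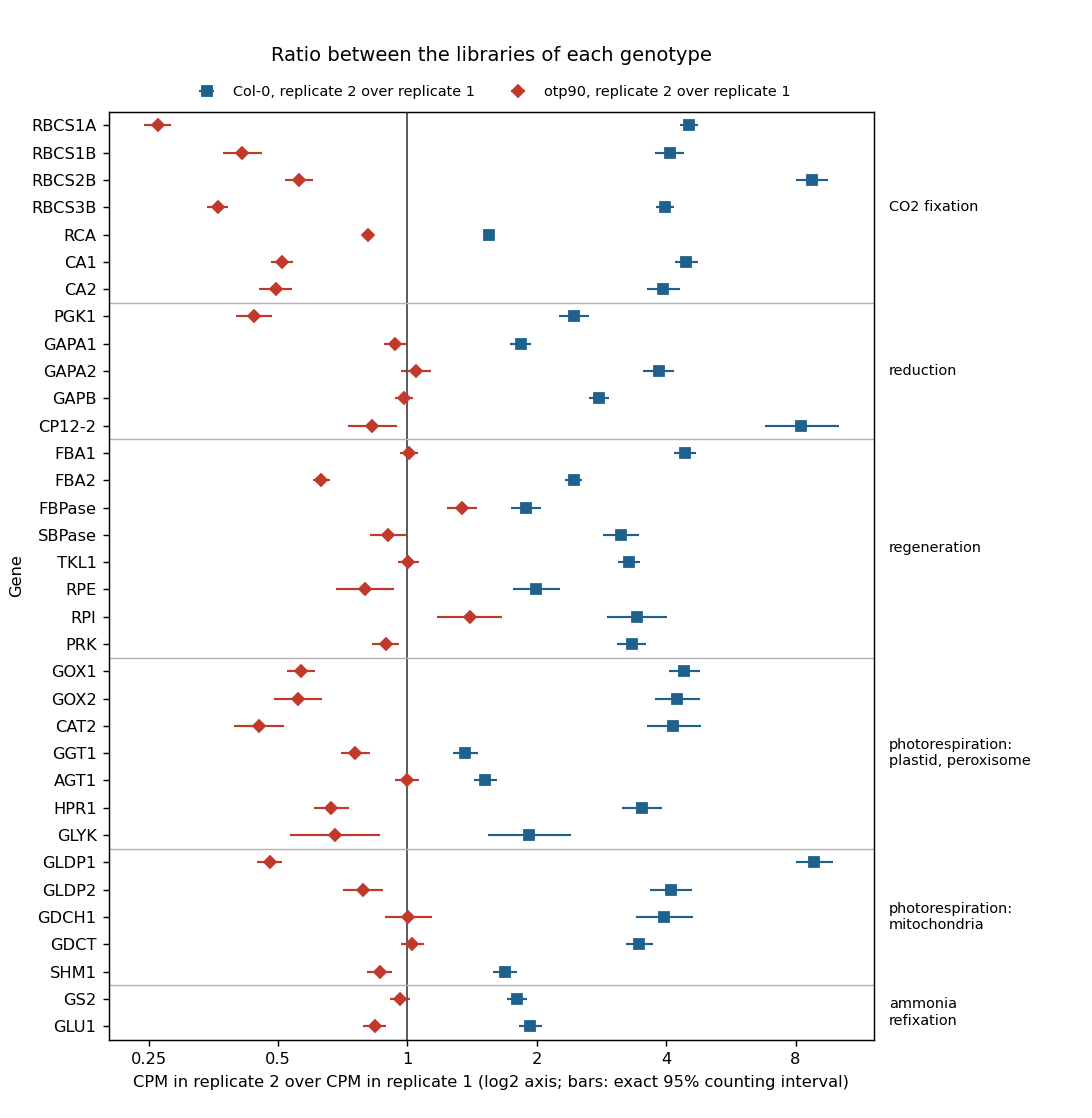
Ratio of the CPM in replicate 2 to the CPM in replicate 1 for each of the 34 members, on a log2 axis, for Col-0 (blue squares) and otp90 (red diamonds), with exact 95% counting intervals as bars. Every blue square lies right of 1, from 1.36 to 8.85, and the red diamonds run from 0.262 to 1.40.

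Photorespiration starts with phosphoglycolate phosphatase, and its gene PGLP1 (AT5G36700) had 0 counts in all 4 libraries. At 3 counts as the limit, a 0 allows up to 2.44 and 1.67 CPM in otp90 and up to 1.2 and 1.60 CPM in Col-0. The locus AT5G36790, on chromosome 5 like PGLP1, also had 0 counts in every library. The coding sequences of the 2 loci are identical over all 1089 bases in TAIR10.1, and 92.1% of the 100-base windows of the PGLP1 transcript have an exact copy elsewhere. Since tied reads had been removed, the 0 gives no level for this enzyme, and PGLP1 was the 1 member left out of the tests. For 32 of the 35 members no 100-base window had an exact copy, and the exceptions were PGLP1, RBCS1B and RBCS3B. With 50-base windows, 25 members had no copy.

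The glycolate oxidases of the peroxisome, GOX1 and GOX2, are close copies that can mostly be counted apart. Their coding sequences are 90.6% identical, with 68 bases as the longest identical run, and no 100-base window of either had an exact copy elsewhere. With 50-base windows the shares with a copy were 1.3% for GOX1 and 1.2% for GOX2. The following 110 bases are coding bases 932 to 1041 of GOX1 and 950 to 1059 of GOX2 on the coding strand in TAIR10.1 from RefSeq. They were chosen as the gap-free stretch of this length with the most differences, with capitals where GOX2 differs from GOX1:
GOX1: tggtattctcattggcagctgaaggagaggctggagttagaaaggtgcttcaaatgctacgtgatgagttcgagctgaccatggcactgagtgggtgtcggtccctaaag
GOX2: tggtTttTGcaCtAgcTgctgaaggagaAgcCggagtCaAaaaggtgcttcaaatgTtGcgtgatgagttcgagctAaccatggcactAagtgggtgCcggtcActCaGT
In this stretch 19 of the 110 bases differ. Over the whole coding sequences 88 of 1122 aligned columns were mismatched and 18 were gaps. GOX1 (AT3G14420) stood at 1296 and 733 CPM in otp90 and at 316 and 1394 CPM in Col-0. GOX2 (AT3G14415) stood at 438 and 244 CPM in otp90 and at 140 and 594 CPM in Col-0. Both genes had nearly the same ratios, 4.41 and 4.24 in Col-0 and 0.565 and 0.557 in otp90.

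The other peroxisomal genes differed in how far the Col-0 libraries were apart. CAT2 (AT4G35090), the leaf catalase that removes the hydrogen peroxide made by glycolate oxidase, stood at 448 and 202 CPM in otp90 and at 101 and 420 CPM in Col-0. GGT1 (AT1G23310), glutamate:glyoxylate aminotransferase, stood at 979 and 741 CPM in otp90 and at 672 and 918 CPM in Col-0. AGT1 (AT2G13360), serine:glyoxylate aminotransferase, stood at 1248 and 1244 CPM in otp90 and at 740 and 1124 CPM in Col-0. The aminotransferases had the lowest Col-0 ratios of all members, 1.36 for GGT1 and 1.52 for AGT1, against 4.16 for CAT2. HPR1 (AT1G68010), hydroxypyruvate reductase, stood at 739 and 491 CPM in otp90 and at 188 and 659 CPM in Col-0. GLYK (AT1G80380), the plastid glycerate kinase that returns carbon to the Calvin cycle, stood at 114 and 77.7 CPM in otp90 and at 56.1 and 108 CPM in Col-0. GLYK had the lowest level per length of the members tested, 52.2 CPM per kilobase on average, rank 1272 among nuclear gene models. All 7 tested genes of this role were higher in Col-0 replicate 2 and lower in otp90 replicate 2 than in replicate 1 of the same genotype.

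In mitochondria, glycine decarboxylase and serine hydroxymethyltransferase turn glycine into serine with release of CO2 and ammonia. The P protein of the decarboxylase, which binds glycine, is encoded by GLDP1 and GLDP2. GLDP1 (AT4G33010) stood at 1694 and 810 CPM in otp90 and at 182 and 1611 CPM in Col-0. GLDP2 (AT2G26080) stood at 514 and 405 CPM in otp90 and at 163 and 671 CPM in Col-0. GLDP1 had the widest Col-0 ratio of all members, 8.85 (8.02 to 9.79), more than its paralogue with 4.11, and in the replicate 1 libraries it was 9.31-fold higher in otp90 than in Col-0. GDCH1 (AT2G35370), which encodes the H protein that shuttles the bound intermediate, stood at 347 and 348 CPM in otp90 and at 93.0 and 368 CPM in Col-0. GDCT (AT1G11860), which encodes the T protein, stood at 1456 and 1496 CPM in otp90 and at 413 and 1433 CPM in Col-0. SHM1 (AT4G37930), the serine hydroxymethyltransferase, stood at 1248 and 1076 CPM in otp90 and at 667 and 1126 CPM in Col-0. For GDCH1 and GDCT, 3 libraries lay close together and Col-0 replicate 1 lay 3.95-fold and 3.47-fold below Col-0 replicate 2. In SHM1 that ratio was 1.69, so the genes of this step did not share 1 ratio. The L protein gene mtLPD1 (AT1G48030), outside the 35 genes, stood at 341 and 325 CPM in otp90 and at 91.8 and 397 CPM in Col-0.

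The ammonia released in mitochondria is fixed again in the plastid by glutamine synthetase and glutamate synthase. GS2 (AT5G35630), the plastid glutamine synthetase, stood at 1851 and 1779 CPM in otp90 and at 949 and 1703 CPM in Col-0. GLU1 (AT5G04140), ferredoxin-dependent glutamate synthase, stood at 1544 and 1297 CPM in otp90 and at 698 and 1347 CPM in Col-0. Both had low Col-0 ratios, 1.79 and 1.93, and for GS2 both otp90 values were above both Col-0 values. By role, the median Col-0 ratio was 4.08 for CO2 fixation, 2.79 for reduction, 3.21 for regeneration, 3.51 for the plastid and peroxisome steps of photorespiration, 3.95 for its mitochondrial steps and 1.86 for ammonia refixation.

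The genotypes were compared with edgeR's quasi-likelihood test over all 11938 genes, adjusted by Benjamini-Hochberg and called at an adjusted p under 0.05. None of the 34 members tested was called, nor any gene of all tested (0%), and DESeq2 and limma voom also called 0. None of the 34 members had an unadjusted p under 0.05 either, against 1.41% of all genes tested. The log2 fold changes of otp90 over Col-0 ran from -0.86 to 0.70 with a median of 0.30, beside -0.01 over all genes, and 28 of 34 were positive, beside 49.2% of all genes. Without Col-0 replicate 1 that median was -0.33, with 9 positive. Without Col-0 replicate 2 it was 1.30, with all 34 positive, and CP12-2 and GLDP1 were then called by edgeR, the smaller adjusted p being 0.0481, among 33 of 13334 genes tested (0.247%). In that fit Col-0 is a single library, assumed to vary like the otp90 libraries. With 2 libraries per genotype the test has little reach. On simulated counts for this comparison 0.4% of the genes changed 2-fold were called, 10.8% of those changed 4-fold and 50% of those changed 8-fold. The changed genes were drawn at random from all genes tested, so these shares are not specific to the members. The 95% intervals of the members reached from -2.77 to 2.49.

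In each role the 2 members with the smallest p between genotypes are given with their fitted values. RBCS1A averaged 1348 ± 1113 CPM in the otp90 libraries against 2448 ± 2206 CPM in Col-0 (mean ± SD, n = 2 per genotype), with a log2 fold change of -0.86 (SE 0.84). RBCS1B had -0.69 (SE 0.73), and these were the most negative values. Of the 100-base windows, 0.0% had an exact copy elsewhere for RBCS1A and 18.1% for RBCS1B. The part of tied reads in these values was not tested. In reduction, GAPB averaged 2404 ± 32.1 CPM in the otp90 libraries against 1548 ± 1034 CPM in Col-0, with a log2 fold change of 0.63 (SE 0.61), and GAPA1 had 0.33 (SE 0.52). In regeneration, FBA1 averaged 2385 ± 15.2 CPM in the otp90 libraries against 1467 ± 1309 CPM in Col-0, with a log2 fold change of 0.70 (SE 0.70) and a 95% interval of -0.89 to 2.30. FBPase had 0.55 (SE 0.52). For FBA1 and GAPB the SD in Col-0 was above the difference between the means.

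In photorespiration, AGT1 averaged 1246 ± 2.56 CPM in the otp90 libraries against 932 ± 271 CPM in Col-0, with a log2 fold change of 0.42 (SE 0.49), and HPR1 had 0.54 (SE 0.63). GDCT averaged 1476 ± 27.8 CPM in the otp90 libraries against 923 ± 721 CPM in Col-0, with a log2 fold change of 0.68 (SE 0.64), and had the smallest unadjusted p of all members in edgeR's fit, 0.316. GDCH1 had 0.59 (SE 0.63). GS2 averaged 1815 ± 50.9 CPM in the otp90 libraries against 1326 ± 533 CPM in Col-0, with a log2 fold change of 0.45 (SE 0.53), and GLU1 had 0.47 (SE 0.53). For 4 members, GAPB, GDCT, AGT1 and GS2, both otp90 libraries were above both Col-0 libraries, and for no member were they below. Among all genes tested 12.4% had both otp90 libraries above and 13.5% had both below, and 25.9% did not overlap in either direction, so 4 of 34 members is no larger a share than the background.

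Within the replicate 1 libraries all 34 members were higher in otp90 than in Col-0 (50.2% of all genes tested), 1.46-fold to 9.31-fold with a median of 2.73. Within the replicate 2 libraries 28 of the 34 were lower in otp90 (49.7% of all genes), with ratios of 0.140 to 1.29 and a median of 0.741. The difference between genotypes therefore had opposite signs in the 2 replicate numbers for 28 members. The share of all genes tested with such opposite signs was not counted, so these 28 have no background beside them. The 6 members higher in otp90 in both numbers were GAPB, FBA1, FBPase, AGT1, GDCT and GS2. In the replicate 2 libraries the counting intervals of FBA1, GDCT and GS2 included a ratio of 1. Among the 28 members, those of GDCH1, SHM1 and GLU1 did so too. The signs of these genes in replicate 2 are therefore within counting error. With 1 library of each genotype and number, a library and the genotype's response within that number cannot be told apart.

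**Figure D3:**
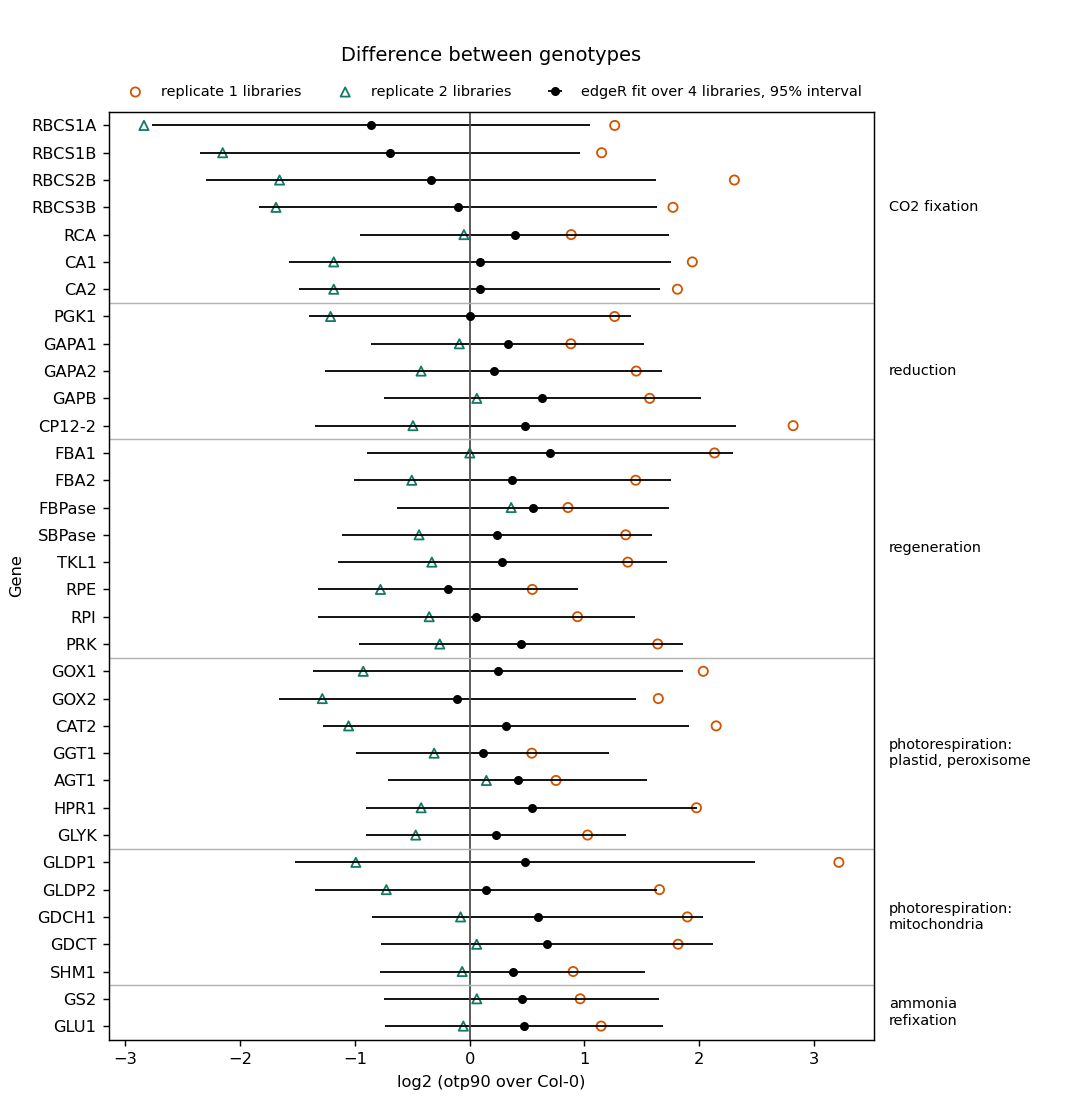
Log2 ratio of otp90 over Col-0 for each of the 34 members: black points with 95% intervals are the edgeR fit over the 4 libraries, open orange circles the replicate 1 libraries and open green triangles the replicate 2 libraries. All orange circles lie right of 0, 28 of 34 green triangles lie left of it, and every black interval spans 0.

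A second fit compared replicate number 2 with number 1 with genotype as a term. It called 96 of the 11938 genes (0.804%), 92 of them lower in number 2, and none of the 34 members. RPI was the 1 member with an unadjusted p under 0.05, beside 8.76% of all genes, at a log2 fold change of 1.13 (SE 0.48) with an adjusted p of 0.475 in edgeR's test. CP12-2 followed with 1.37 (SE 0.70), then FBA1 with 1.08 (SE 0.58), GAPA2 with 1.0 (SE 0.54) and GDCH1 with 0.99 (SE 0.54). All 34 log2 fold changes were positive (51.6% of all genes), with a median of 0.60 beside 0.02 over all genes, but both number 2 libraries were above both number 1 libraries for only 6 members (21% of all genes). DESeq2 and limma voom also called 0 members here, and 2 and 5 members had an unadjusted p under 0.05, beside 5.32% and 9.09% of all genes. Without otp90 replicate 1 the fit has no genotype term and sets Col-0 replicate 1, a single library assumed to vary like the others, against the 2 replicate 2 libraries. It then called 511 of 13668 genes tested (3.74%), 263 higher and 248 lower in number 2, and 21 of the 34 members, all higher. Without Col-0 replicate 1 the median of the members was -0.06.

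Genes known to respond to darkness and time of day were lower in replicate 2 of both genotypes in sum, whereas 27 of the 34 members went in opposite directions in the genotypes. A list of 9 dark-induced and clock genes, ASN1, DIN10, SEN1, PRR7, PRR5, LHY, CCA1, TOC1 and GI, summed to 799 and 116 CPM in otp90 and to 859 and 136 CPM in Col-0. Of the 8 of them that were tested, 5 were called lower in number 2 by edgeR's test and none was called between genotypes. The fit between numbers called 0.804% of all genes tested, in either direction. This list was chosen with earlier results of these data known, so its calls are no independent result. The light-harvesting gene LHCB3 (AT5G54270) stood at 2360 and 462 CPM in otp90 and at 4616 and 370 CPM in Col-0, and its log2 fold change was -3.0 between numbers with an adjusted p of 0.0129 in edgeR's test. The 4 green tissue markers, LHCB3 among them, summed to 9667 and 4380 CPM in otp90 and to 11595 and 5406 CPM in Col-0. LHCB3 and LHCA1 were highest in Col-0 replicate 1, where 32 of the 34 members were lowest, but the other green tissue markers were not. PSAF (AT1G31330) stood at 418 and 132 CPM in otp90 and at 352 and 498 CPM in Col-0, highest in Col-0 replicate 2. PSBO1 (AT5G66570) stood at 5196 and 3121 CPM in otp90 and at 3721 and 3905 CPM in Col-0, highest in otp90 replicate 1. The part of these differences in the members' values was not tested.

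Among the members, 6 sets of paralogues allow a ratio within a library, in which depth cancels. CA2 held 31.5% and 30.7% of the CA1 and CA2 counts in otp90 and 33.4% and 30.7% in Col-0, with overlapping counting intervals, while the level of both genes differed more than 3-fold between the Col-0 libraries. GOX2 held 25.2% (23.4 to 27.1%) and 25% (22.9 to 27.1%) of the GOX1 and GOX2 counts in otp90. In Col-0 it held 30.7% (28 to 33.5%) and 29.9% (28.4 to 31.4%), so no otp90 interval overlapped a Col-0 interval. The means were 25.1 ± 0.196% and 30.3 ± 0.580% (SD, n = 2 each), a difference of -5.19 percentage points, and the exact two-sided permutation test gave p = 0.333, the smallest that 2 against 2 libraries allow. FBA1 held 43.5% and 55.2% of the FBA1 and FBA2 counts in otp90 and 32.3% and 46.4% in Col-0. GAPA2 held 34.5% and 37.1% of the GAPA1 and GAPA2 counts in otp90 and 26.2% and 42.6% in Col-0. In both sets the share was higher in replicate 2 of each genotype. GLDP2 held 23.3% and 33.3% of the GLDP1 and GLDP2 counts in otp90 and 47.3% and 29.4% in Col-0, highest in the library in which both genes were lowest.

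Among the RBCS genes, RBCS1A held 29.3% and 20.7% of the summed counts in otp90 and 36.8% and 35.5% in Col-0. RBCS3B held 43.1% and 42.0% in otp90 and 38.1% and 32.4% in Col-0. RBCS2B held 16.8% and 25.3% in otp90 and 10.2% and 19.1% in Col-0. RBCS1B held 10.9% and 12.1% in otp90 and 14.8% and 12.9% in Col-0. The values of the genotypes did not overlap for RBCS1A, RBCS1B and RBCS3B, and the exact permutation test gave p = 0.333 for each of them. For RBCS1B the counting intervals did overlap, with 11.2 to 13.1% in otp90 replicate 2 and 12.5 to 13.4% in Col-0 replicate 2. Of the 9 shares compared, 4 did not overlap between genotypes, and since none could reach a p under 0.333, none passes a correction over the 9. With genotype labels assigned at random, each share would fail to overlap with the same probability, 0.333. The RBCS shares are parts of the same total in each library, so they are not independent. The counts of RBCS1B and RBCS3B also lack tied reads, with 18.1% and 12.1% of 100-base windows copied elsewhere.

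**Figure D4:**
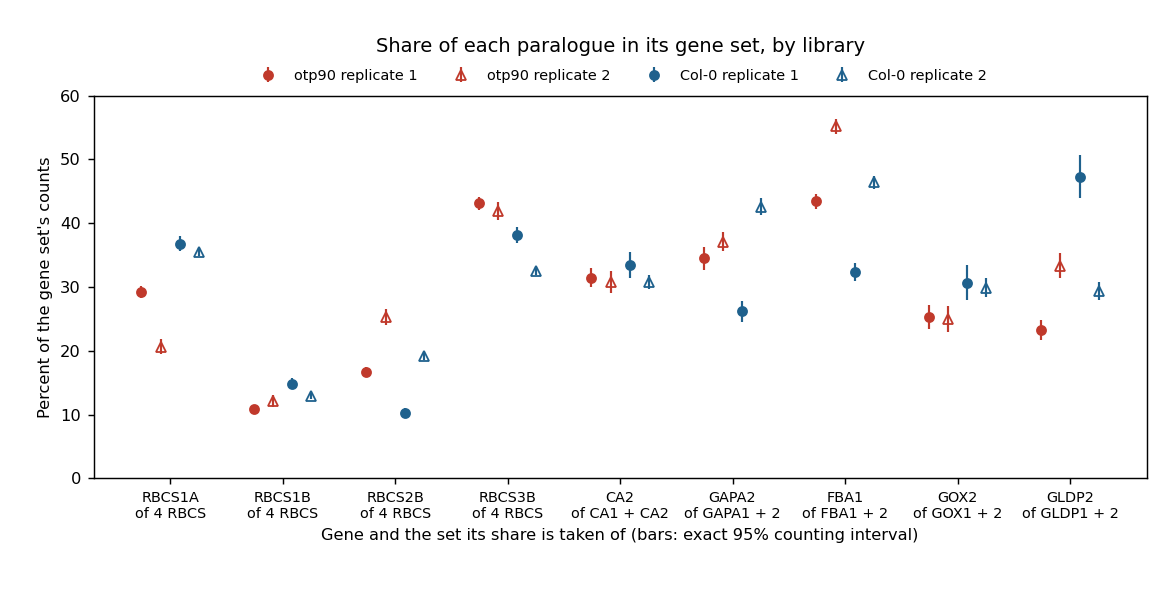
Percent of a set's counts that 1 paralogue held in each library, with exact 95% counting intervals as bars, for the 4 RBCS genes and 1 gene of each of 5 pairs. Red marks are otp90 and blue marks Col-0, filled circles replicate 1 and open triangles replicate 2. The GOX2 marks lie near 25% in otp90 and near 30% in Col-0, and the CA2 marks lie between 30.7% and 33.4% in all 4 libraries.

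Per length, 13 of the 35 members ranked among the 100 highest of 33319 nuclear gene models and 31 among the 500 highest. RCA was the highest member in each of the 4 libraries. RBCS3B followed at rank 29, RBCS1A at 42, FBA2 at 50, RBCS2B at 58, FBA1 at 60 and CA1 at 66. All 33 pairs of neighbours in the order of the 34 members had overlapping ranges over the 4 libraries. Only 3 pairs, RCA and RBCS3B among them, kept their order in every library, so the order of most neighbours is uncertain. Apart from PGLP1, the lowest ranks were GLYK at 1272, RPI at 680 and GLDP2 at 557. Levels per length depend on the deposited model lengths, which equal the TAIR10.1 transcript used here for 3 members and were 0.750 to 1.94 times its length over all 35. The highest of these ratios was that of RPI, with 1928 bases against 992, so its rank is uncertain.

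A list of 45 other genes of these pathways covered further isoforms, transporters between the organelles, Rubisco assembly factors and rbcL, and 40 of them were tested. None was called in the genotype fit by edgeR, 0 of the 40 had an unadjusted p under 0.05 (1.41% of all genes), and 25 log2 fold changes were positive (49.2% of all genes) and 15 negative. Their median Col-0 ratio was 1.55, beside 3.44 for the 34 members. The smallest p between genotypes belonged to CAT3 (AT1G20620), another catalase, with 815 and 449 CPM in otp90 but 1400 and 1351 CPM in Col-0 and a log2 fold change of -1.12 (SE 0.52). Both otp90 values of CAT3 were below both Col-0 values, whereas the genotypes overlapped for CAT2. The dicarboxylate transporters of the plastid envelope, DiT1 and DiT2.1, had log2 fold changes of -1.20 (SE 0.70) and -1.0 (SE 0.54), and the plastid triose phosphate isomerase had -1.0 (SE 0.54). None of these 4 passed the test.

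Between replicate numbers none of the 40 was called by edgeR, and 3 had an unadjusted p under 0.05, a share no larger than the 8.76% of all genes. The 4 genes with the smallest p are given as values. CPN60B2 (AT3G13470), a subunit of the plastid chaperonin that folds the Rubisco large subunit, stood at 90.1 and 130 CPM in otp90 and at 68.2 and 244 CPM in Col-0, and its log2 fold change was 1.19 (SE 0.48). SHM2 (AT5G26780), the second mitochondrial serine hydroxymethyltransferase, stood at 9.74 and 32.2 CPM in otp90 and at 23.3 and 43.2 CPM in Col-0. Unlike SHM1, it was higher in replicate 2 of both genotypes. CAT1 (AT1G20630) stood at 47.1 and 13.3 CPM in otp90 and at 52.5 and 36.8 CPM in Col-0, and its log2 fold change was -1.12 (SE 0.51). The cytosolic glutamine synthetase GLN1;3 (AT3G17820) stood at 24.4 and 58.3 CPM in otp90 and at 24.5 and 40.0 CPM in Col-0, with 0.98 (SE 0.48). None of these 4 passed the test.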

How the data were processed

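RNA was measured in 4 stranded libraries depleted of rRNA and read single-end on an Ion Proton, 2 of otp90 and 2 of Col-0, grouped by the titles' genotype and replicate number. Unnormalised counts of reads on each gene model were deposited, and sam2pkm had produced them from alignments without tied best hits, per the file headers. The removal took 79.9% to 87.0% of mapped reads. The gene model lengths used for levels per kilobase are also deposited values, per the file headers. The genome was TAIR10 per the submitters' processing notes. The aligner and any use of strand in counting are not given in the sources used here. Overlapping or antisense genes may therefore share reads.

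The members and all lists were chosen with earlier results of these data known. The counts were fitted in edgeR 4.0.16 (R 4.3.3), with 15 rRNA models left out (4.96% to 7.69% of counts), filterByExpr by genotype, TMM scaling, a two-sided quasi-likelihood test and Benjamini-Hochberg adjustment over 11938 genes. The standard error came from the fold change and the F statistic. Replicates of a genotype were not 1 library deposited again: a chi-square test over the genes tested gave 16.5 per degree of freedom between the otp90 libraries and 30.2 between the Col-0 libraries. Every member is named. Tested values are given for the 2 members with the smallest p per role between genotypes, the 5 with the smallest p between numbers, and up to 4 other pathway genes per fit. Alternatives were DESeq2 1.42.0 and its size factors, limma voom 3.58.1, scaling on nuclear genes, no low-count filter, rRNA kept, a replicate block, other denominators and leaving out each library. The fits were tested on simulated data, 5 draws for 11938 genes with 200 changed. Exact intervals and permutation tests used scipy 1.17.1. Coding sequences, and copies of transcript windows, came from the RefSeq annotation of TAIR10.1, whose build differs from the files', so no coordinates are given.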

Additional observations from a re-analysis of the deposited data

How the results depend on the processing

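For the 12 members with fitted values between genotypes, all 84 values under DESeq2, limma voom, other scalings, no low-count filter, rRNA kept and the replicate block kept their direction and side of the threshold. Over all 34 members, 28 were positive, 27 without the filter and 31 under limma voom. Leaving out 1 library gave 0 to 33 called genes between genotypes, 0 to 2 called members, and a median log2 fold change of the members of -0.33 to 1.30. It reversed RBCS1A (-2.10 to 0.61), RBCS1B (-1.45 to 0.66), GAPA1 (-0.0236 to 0.85), HPR1 (-0.0838 to 1.72) and GDCH1 (-0.0653 to 1.91). Between numbers, 96 genes were called, 214 without the low-count filter, and 178 to 511 with 1 library left out. Then 0 to 21 members were called, their median was -0.06 to 1.51, and CP12-2 ran from -0.0035 to 2.82. The causes were not tested. What a replicate number marks is not given in the labels. Deviations of libraries with the same number from the genotype means correlated at r = 0.217 over all genes tested and -0.384 over the members, and a replicate block called 0 genes and 0 members, with 31 of 34 members positive and a median of 0.46. The members' share was 4.65%, 4.0%, 2.07% and 5.97% of all non-rRNA counts in otp90 replicates 1 and 2 and Col-0 replicates 1 and 2, and 6.48%, 5.47%, 2.78% and 6.55% of nuclear counts without the RBCS genes. With 2 libraries per genotype, changes under 8-fold were mostly missed on simulated counts, for genes drawn from all those tested. Tied reads limit PGLP1 and the RBCS genes.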
